A study of Mus musculus with 8 samples.

Results

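The proteins of the cytosolic ribosome were followed as a group of 84 genes in the visceral fat depot that lies beside the epididymis of male mice (epididymal white adipose tissue). The genes were taken by symbol: Rplp0, Rplp1, Rplp2, Rpsa and every symbol that starts with Rpl or Rps and goes on with a digit. Pseudogenes marked -ps and the ribosomal S6 kinases were left out, and a mean of at least 0 log2 CPM (reads scaled to a common library total, on a log2 scale) was required. Of 16505 genes in the table, 86 had such a symbol and 84 passed the level limit, among 13797 genes that were tested. Large-subunit symbols made up 50 of them and small-subunit symbols 34. The muscle-type copy Rpl3l (mean of -0.73 log2 CPM) and the retrotransposed copy Rps27rt (-0.27) fell just under the limit, and the lowest gene above it was Rpl37rt at 0.96. The symbol rule also takes in genes that are no core ribosomal protein. Rps4l is annotated by RefSeq as a transcribed pseudogene and Rps19bp1 encodes a binding partner of a ribosomal protein. Removing these, Rpl37rt and the other paralog copies left 77 core genes.

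The 8 libraries came from C57BL/6 mice kept for 12 weeks on a high fat diet, 4 of them wild type (WT) and 4 carrying a double knockout of miR-181 (DKO in the plots). Both groups had the same diet, so the contrast is the genotype under that diet. The labels do not name the deleted miR-181 loci, the cells in which they were deleted, the age of the mice or their litters, and the table has 0 rows named for miR-181, so the deletion itself could not be checked. Polyadenylated RNA was sequenced from whole tissue, in which fewer cells of a type and less RNA per cell cannot be told apart. Only the variation among these 8 samples enters the p-values.

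A eukaryotic ribosome joins a small subunit, which reads the messenger RNA, and a large subunit, which forms the peptide bond. Each ribosomal protein is needed in about equal number, and cells keep the messages of these genes at high and matched levels. Most of these messages start with a run of pyrimidines, the 5′ terminal oligopyrimidine tract, through which the kinase mTOR and the RNA-binding protein Larp1 control their translation. In fat tissue, growth signals such as insulin act on this control, and several ribosomal protein genes serve as reference genes in quantitative PCR.

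The annotated start sites were searched for this tract, which only a minority of the matched genes held there. Among the 84 genes, 63 were matched by symbol to the RefSeq promoter table (GRCm38.p6), with 74 promoters. A tract, taken as C at the annotated start followed by at least 4 pyrimidines, was present in 13 of them (17.6%), against 2.51% of all 32851 promoters of the table. For a gene with several promoters in the table, the longest tract among them was taken. Starts outside the table were not examined, so these letters describe annotated starts alone. The 30-base windows below hold 10 bases before the start and 20 from it, with the tract in capitals. Rplp2 and Rpl14 are shown for the largest upward values among the core genes, Rps6 as the substrate of the S6 kinases, and Rpl31 and Rpl23 for the lowest values among the core genes. Their positions are chr7:141447641-141447670 (plus strand), chr9:120571507-120571536 (plus), chr4:86857348-86857377 (minus), chr1:39367841-39367870 (plus) and chr11:97782420-97782449 (minus).
Rplp2: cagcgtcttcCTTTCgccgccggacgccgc
Rpl14: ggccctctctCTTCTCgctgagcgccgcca
Rps6: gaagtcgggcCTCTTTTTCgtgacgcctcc
Rpl31: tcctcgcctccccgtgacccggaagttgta
Rpl23: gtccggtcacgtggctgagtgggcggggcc

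The first 3 windows hold a tract at the annotated start and the last 2 do not. Most of these windows were chosen by their values, so they do not show how tract and change go together over the group. In the full 300-base promoters, the ETS-type motif CCGGAAG on either strand was found in 35.1% of the 74 promoters against 8.86% of all promoters, and it is visible in the Rpl31 window. The YY1-type motif AAGATGGC on either strand was found in 10.8% against 2.75%. The median change (knockout minus WT, log2) was 0.01 over the 13 genes with a tract at an annotated start, with a range from -0.27 to 0.74. It was -0.04 over the 50 matched genes without one, with a range from -0.96 to 0.43.

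Knockout replicate 1 was the shallowest library (3736881 reads) and knockout replicate 2 the deepest (76838584 reads). The 77 core genes had at least 324 reads in every library, so that counting error was small for them, while the lowest count of any of the 84 genes was 6. Ribosomal RNA took over 1% of reads in WT replicates 1, 3 and 4 and knockout replicate 1 (3.07% to 11.5%), and 0.0916% to 0.334% in WT replicate 2 and knockout replicates 2, 3 and 4. Epididymis genes took 1.32% to 2.81% of reads in WT replicate 2 and knockout replicates 2 and 4, and at most 0.00546% elsewhere. Adipocyte markers, the check of the labelled tissue, were present in every library and rose from 1.10% ± 0.34 (SD, n = 4) of reads in WT to 3.31% ± 0.71 (n = 4) in the knockouts, with 13 of 14 markers called higher and 0 lower. Macrophage markers went from 0.931% ± 0.061 to 0.189% ± 0.031, with 14 of 15 called lower and 1 higher. Of 20 cell cycle genes 19 were called lower. The part of these shifts in the results below was not tested, unless a value is given.

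The ribosomal protein messages took a like share of reads in both groups, and they differed more between the libraries of a group than between genotypes. In WT replicates 1 to 4 the 84 genes held 2.50%, 3.64%, 2.78% and 3.01% of reads, a mean of 2.98% ± 0.49 (SD, n = 4). In knockout replicates 1 to 4 they held 2.10%, 2.97%, 3.08% and 3.82%, a mean of 2.99% ± 0.71 (n = 4). The groups overlapped throughout. Each share had a narrow counting interval (for the shallowest library, knockout replicate 1, 2.08% to 2.11%, 95% Wilson), so the differences between libraries exceeded counting error. Differences between mice and between library preparations cannot be told apart here. Large- and small-subunit genes moved together, at a read ratio of 1.45 ± 0.03 in WT and 1.48 ± 0.04 in the knockouts.

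The genes rose and fell as a block from library to library. In knockout replicate 1 all 84 genes were below their own mean over the 8 libraries, and 70 of them had their lowest value there. In knockout replicate 4, 83 of the 84 were above their own mean and 50 had their highest value. WT replicate 2 had 82 above and WT replicate 1 only 1 above. The median deviation from a gene's own mean was -0.23, 0.31, -0.08 and 0.03 log2 units in WT replicates 1 to 4 and -0.45, -0.03, 0.05 and 0.39 in knockout replicates 1 to 4. The lowest 3 medians belong to libraries with over 1% ribosomal RNA, and the highest 2 to libraries with less ribosomal RNA and with epididymis reads. Of those 2, knockout replicate 4 had the most red cell reads of all libraries (1.19%) and WT replicate 2 the fewest (0.0276%). Knockout replicate 2, with 0.334% ribosomal RNA and the most epididymis reads (2.81%), was only at -0.03. WT replicate 4, with 5.85% ribosomal RNA, was at 0.03. The part of ribosomal RNA, epididymis or red cell reads in the deviations was not tested.

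**Figure D1:**
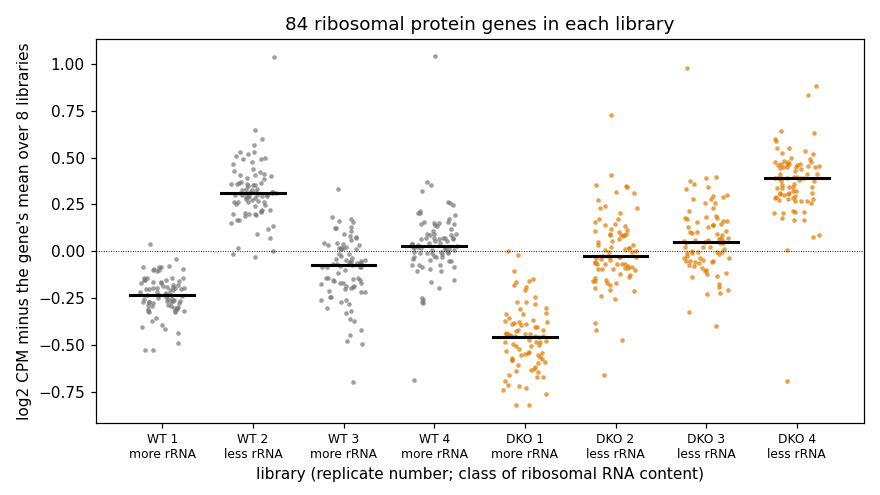
Deviation of each of the 84 ribosomal protein genes from its own mean over the 8 libraries (log2 units, y axis) for each library (x axis). The genes shift together, down in knockout replicate 1 (median -0.45) and up in knockout replicate 4 (0.39) and WT replicate 2 (0.31).

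Against this background, few ribosomal protein genes differed between the genotypes. In limma's moderated test over all 13797 genes, with Benjamini-Hochberg adjustment at 0.05, 2 of the 84 were called (2.38%), whereas 38.8% of all tested genes were. The 1 gene called higher was Rps4l (1.19% of the 84, against 22.7% of all tested genes) and the 1 called lower was Rpl31 (1.19%, against 16.1%). At an unadjusted p under 0.05 in limma the counts were 2 higher and 3 lower, against 4144 and 2632 of all 13797 tested genes. The groups did not overlap for 2 genes, Rpl31 and Rpl37rt (2.38%), against 37.4% of all tested genes. Among the 77 core genes 0 were called higher and 1 lower. By contrast, among the 1266 tested genes of similarly high level (a mean of at least 7 log2 CPM), 311 were called higher and 317 lower.

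With group as the only term, the changes themselves were small. Their median was -0.02 on the log2 scale, with quartiles of -0.14 and 0.08 and the whole range from -0.96 (Rpl37rt) to 0.74 (Rplp2). All tested genes had a median of 0.18, and relative to it the ribosomal protein genes had a median of -0.20. A change within 0.25 of 0 was found for 69 genes (82.1%), against 30.4% of all tested genes, and 0 changed by over 2-fold, against 24.7%. The 95% interval lay within a 2-fold change either way for 80 genes (95.2%, against 51.9%) and within 1.5-fold for 45 (53.6%, against 3444 of all 13797 tested genes). The residual SD of the 84 genes had a median of 0.325, larger than the 0.225 of the genes at a mean of at least 7, so these libraries limit changes of 1.5-fold for only part of the group. The 4 genes whose interval passed 2-fold were Rplp2, Rpl14, Rps4l and Rpl37rt. The share within 0.25 of 0 depended on the fit. With a term for over or under 1% ribosomal RNA it was 34.5%, against 34.5% of all tested genes. It was 64.3% (against 31.5%) both under median centring and with median-ratio size factors, and 83.3% (against 32.3%) under quantile normalization.

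**Figure D2:**
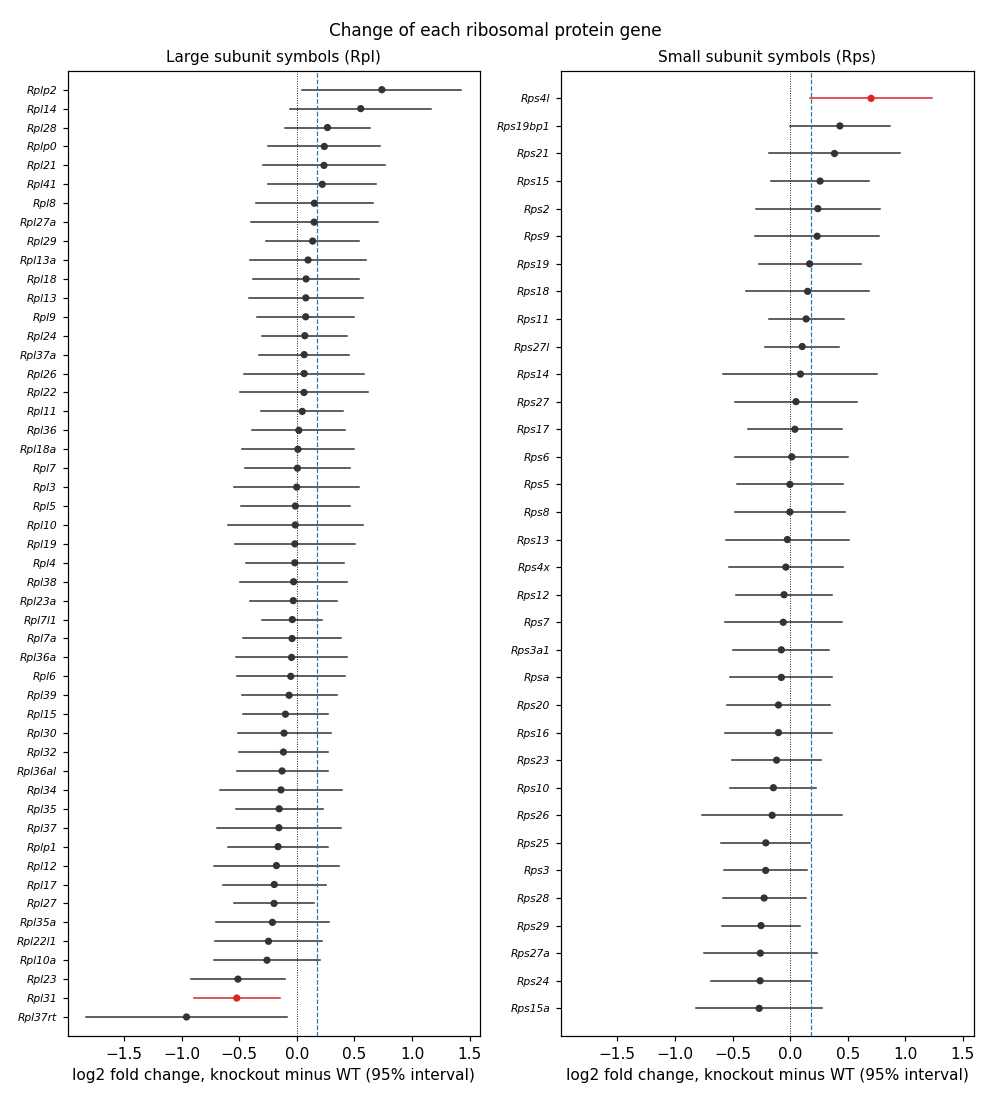
Change of each ribosomal protein gene, knockout minus WT (log2, x axis), with its 95% interval from limma, ordered by change. Red marks the 2 genes past the threshold (Rpl31 and Rps4l), the dotted line is 0 and the dashed line is the median of all tested genes (0.18).

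**Figure D3:**
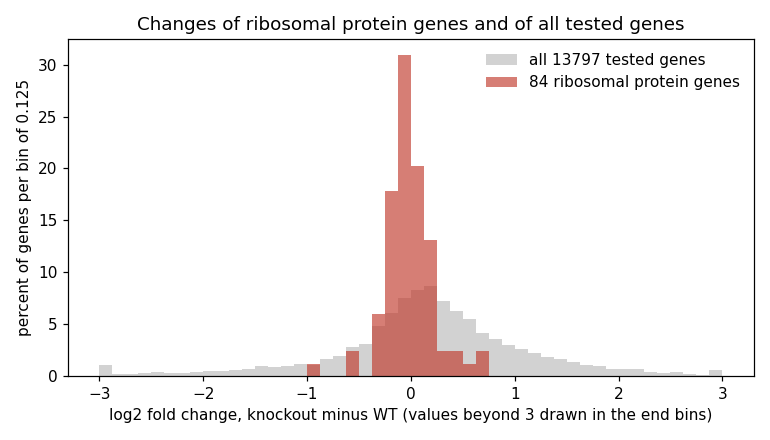
Distribution of the log2 change, knockout minus WT (x axis; values beyond 3 sit in the end bins), as percent of genes per bin (y axis), of the ribosomal protein genes and of all 13797 tested genes. In this fit, with group as the only term, the ribosomal protein genes gather near 0, with 82.1% within 0.25 of it against 30.4% of all tested genes.

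The ribosomal stalk binds the translation factors that hydrolyse GTP, and it is built from Rplp0, Rplp1 and Rplp2 with Rpl12 at its base. Among its 4 genes 0 were called. Rplp2 stood at 7.52, 7.99, 7.31 and 7.73 log2 CPM in WT replicates 1 to 4 and at 7.55, 8.13, 8.99 and 8.84 in knockout replicates 1 to 4. Knockout replicates 3 and 4 were far above every WT library, while knockout replicate 1 lay inside the WT range. Knockout replicates 3 and 4 also had the most red cell reads (0.406% and 1.19%), and a link was not tested. Its difference of 0.74 ± 0.31 (SE) did not pass limma's test (adjusted p = 0.0838), and its 95% interval ran from 0.05 to 1.43. Without knockout replicate 1 it was 1.01 with an adjusted p of 0.0103, in a range over the 25 alternatives of 0.00747 to 0.321. The partner Rplp1 pointed the other way, at 9.47 ± 0.32 in WT and 9.31 ± 0.25 in the knockouts (n = 4 each; interval -0.59 to 0.27). Rplp0, the scaffold of the stalk and a common reference gene, was at 9.45 ± 0.24 and 9.69 ± 0.39 (interval -0.25 to 0.72), and Rpl12 at 8.31 ± 0.31 and 8.14 ± 0.46 (interval -0.72 to 0.37).

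Rpl5 and Rpl11 carry the 5S ribosomal RNA into the large subunit and, when free, restrain the p53 regulator Mdm2. Rpl5 stood at 8.87, 9.49, 9.13 and 9.23 in WT and 8.69, 9.18, 9.17 and 9.62 in the knockouts. Rpl11 stood at 8.14, 8.68, 8.24 and 8.50 in WT and 8.22, 8.31, 8.48 and 8.72 in the knockouts. The groups overlapped for both genes. The changes were -0.01 ± 0.21 for Rpl5 (interval -0.49 to 0.46) and 0.05 ± 0.16 for Rpl11 (interval -0.31 to 0.40). Rpl3, near the peptidyl transferase centre, changed by 0.00 ± 0.24, and Rpl10, which completes the subunit late in its assembly, by -0.01 ± 0.26. Neither passed the test.

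Where the growing chain leaves the large subunit, at the exit tunnel, 0 of 9 listed genes were called higher and 1 lower. That gene was Rpl31, which lies at the tunnel exit. It stood at 8.35, 8.91, 8.34 and 8.68 in WT replicates 1 to 4 and at 7.92, 7.83, 8.12 and 8.31 in knockout replicates 1 to 4. All 4 knockout libraries were below all 4 WT libraries, although the nearest, knockout replicate 4 and WT replicate 3, were only slightly apart. It fell by 0.52 on the log2 scale (SE 0.16, adjusted p = 0.0331 in limma), to 0.697 of the WT level. The call was lost in 6 of 25 alternatives: without WT replicate 2, WT replicate 4 or knockout replicate 1, 2 or 3, each left out alone, and without the 3 libraries with epididymis reads. The adjusted p over these alternatives ran from 0.00606 to 0.109, and the change from -0.68 to -0.41. The other 8 genes of the list, among them Rpl4, Rpl19, Rpl26 and Rpl39, did not pass, and the list had a median change of -0.03.

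Rpl23, a core protein at the face that meets the small subunit, came next. Its WT libraries stood at 9.05, 9.61, 9.27 and 9.44 and its knockout libraries at 8.63, 8.66, 8.76 and 9.26. Only knockout replicate 4 reached into the WT range. The change of -0.51 ± 0.18 just missed the threshold (adjusted p = 0.0507 in limma), and it was past the threshold in 11 of the 25 alternatives. Rpl14, also of the large subunit, was the second highest core gene after Rplp2. It stood at 7.25, 7.74, 7.33 and 7.67 in WT and at 7.24, 8.18, 8.14 and 8.66 in the knockouts, so that 3 knockout libraries were above every WT library and knockout replicate 1 was below them. Its change was 0.55 ± 0.27 (adjusted p = 0.133, over the alternatives 0.00725 to 0.516), and 0.83 without knockout replicate 1 (adjusted p = 0.00725).

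On the small subunit, the head holds the messenger RNA and transfer RNA from above, and 0 of its 14 listed genes were called, with a median change of -0.10. Of the 4 genes at the messenger entry and decoding region, Rps2, Rps3, Rps9 and Rps23, also 0 were called. Rps3, which lies at the entry, had a change of -0.21 ± 0.16 (interval -0.57 to 0.15). Rps2 pointed up, at 0.24 ± 0.24 (interval -0.30 to 0.78). Rpsa, also known as the laminin receptor, stood at 9.80 ± 0.24 in WT and 9.72 ± 0.32 in the knockouts. Rps6, the protein that S6 kinases phosphorylate in response to insulin and nutrients, stood at 8.51, 8.97, 8.59 and 8.73 in WT and at 8.16, 8.68, 8.78 and 9.24 in the knockouts. Its highest and its lowest library were both knockouts, and its change was 0.01 ± 0.22 (interval -0.48 to 0.51). Rps21, another small-subunit protein, stood at 7.17, 7.86, 7.30 and 7.35 in WT and at 7.07, 7.96, 7.95 and 8.24 in the knockouts, again with knockout replicate 1 alone below WT. Its change was 0.39 ± 0.25 (adjusted p = 0.251, over the alternatives 0.0196 to 0.978).

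Among 7 genes that are used to normalise quantitative PCR in fat and other tissues, 0 passed the test. Their changes were -0.25 for Rps29, -0.12 for Rpl32, -0.02 for Rpl4, -0.02 for Rpl19, 0.10 for Rpl13a, 0.15 for Rps18 and 0.24 for Rplp0. The lowest of them, Rps29, stood at 8.52, 9.11, 8.88 and 9.01 in WT and at 8.48, 8.55, 8.64 and 8.84 in the knockouts, with an interval from -0.59 to 0.09. Rps18 stood at 7.97, 8.45, 8.03 and 8.26 in WT and at 7.59, 8.48, 8.53 and 8.70 in the knockouts. Its 3 knockout libraries with less ribosomal RNA were above every WT library and knockout replicate 1 was below, so that its interval ran from -0.38 to 0.69. Of these 7 genes Rps18 was called without knockout replicate 1, and Rps29 was called as lower under median centring and under median-ratio scaling. A list of 14 genes mutated in Diamond-Blackfan anaemia, an inherited failure of red cell production, gave 0 calls and a median change of -0.08. The list need not hold every gene of the disease. Rps19, the most often mutated of the listed genes, stood at 8.16 ± 0.17 in WT and 8.33 ± 0.40 in the knockouts (interval -0.27 to 0.61).

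**Figure D4:**
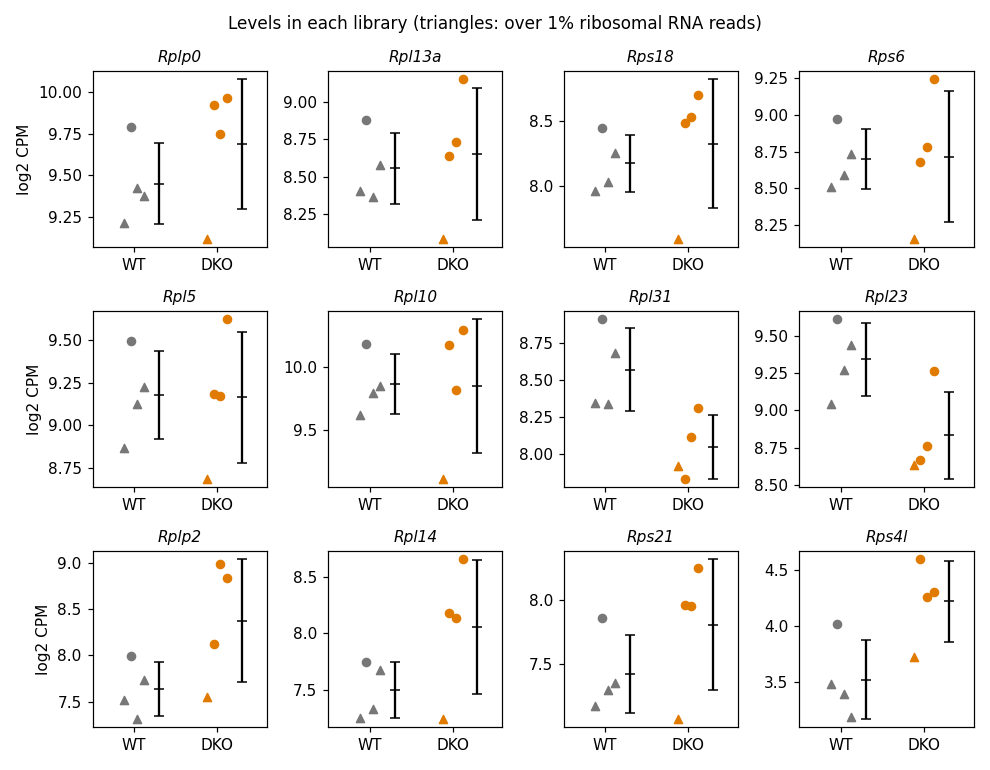
Log2 CPM in each library (y axis) of selected ribosomal protein genes by group (x axis), with triangles for the libraries with over 1% ribosomal RNA reads. The groups do not overlap for Rpl31, and for Rplp2 and Rpl14 knockout replicate 1 lies with the WT libraries.

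Several ribosomal proteins have a second gene copy, and the copies were compared with their partners inside each library. Per kilobase of transcript (median length over GENCODE M21 transcripts), WT levels were 6.66 for Rpl22l1 and 6.26 for Rpl22, a pair whose proteins replace each other in the large subunit, and 6.75 for Rps27l, a p53 target, against 9.59 for Rps27, all in log2 CPM per kilobase. They were 7.10 for Rpl36al against 8.21 for Rpl36a and 5.78 for Rpl7l1 against 9.10 for Rpl7. Near-identical sequence could have split the reads of some pairs between copies. The log2 ratio of copy to partner moved by -0.31 for Rpl22l1, 0.05 for Rps27l, -0.08 for Rpl36al and -0.04 for Rpl7l1, and none of these 4 passed an exact two-sided permutation test (p = 0.2, 0.714, 0.543 and 0.886). Rps4l against Rps4x had a ratio of -5.97, -5.83, -6.14 and -6.41 in WT and -5.28, -4.91, -5.44 and -5.76 in the knockouts. Every knockout library was above every WT library, with a difference of 0.74. The exact permutation p was 0.0286, the smallest that 4 against 4 allows, and 0.143 after adjustment over the 5 pairs.

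Rps4l itself stood at 3.48, 4.02, 3.40 and 3.19 in WT replicates 1 to 4 and at 3.73, 4.60, 4.27 and 4.30 in knockout replicates 1 to 4. The groups overlapped, since WT replicate 2 was above knockout replicate 1. The rise of 0.70 ± 0.23 passed limma's test (adjusted p = 0.0410) and rested on 45 to 1865 reads per library. The call was lost in 9 of 25 alternatives, with adjusted p from 0.0118 to 0.115. Those were leaving out WT replicate 1, 3 or 4 or knockout replicate 2, 3 or 4, thinning to the smallest library, adding the ribosomal RNA class as a term, and leaving out the libraries with epididymis reads. Rpl37rt, a retrotransposed copy, was at 1.44 ± 0.65 in WT, where no library was below 0.88, and at 0.80, 0.30, 0.56 and 0.27 in the knockouts. Its groups did not overlap, yet the change of -0.96 ± 0.38 did not pass (adjusted p = 0.0763).

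With the libraries split by ribosomal RNA content, the median change of the ribosomal protein genes was below 0 in both classes. In the class with over 1% ribosomal RNA (3 WT and 1 knockout) the median change was -0.39, and in the other class (1 WT and 3 knockouts) it was -0.16, against 0.04 and 0.08 over all tested genes. Of the 84 genes, 66 (78.6%) were lower in both classes, against 35.3% of all tested genes, and 3 were higher in both (3.57%, against 43.6%), namely Rplp2, Rps4l and Rps19bp1. Each class has a single library of one genotype. The lone knockout is replicate 1, the lowest of all in ribosomal protein messages, and the lone WT is replicate 2, the second highest. So the 2 classes rest on these libraries, and genotype within a class and the state of that one library cannot be told apart. The classes also differ in depth, at 3736881 to 6790005 reads in the class with over 1% and 15410736 to 76838584 in the other. Class of ribosomal RNA and depth therefore cannot be told apart. Within the class with over 1%, ribosomal RNA content still ran from 3.07% to 11.5%.

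When limma was given the ribosomal RNA class as an added term, 12 of the 84 genes were called lower (14.3%, near the 15.4% of all tested genes) and 0 higher (against 16.3%). The median change was then -0.29. The 12 were Rpl31, Rpl23, Rps15a, Rps26, Rps27a, Rpl12, Rpl10a, Rpl35a, Rpl37, Rpl34, Rps3 and Rpl27. When knockout replicate 1 was left out, the picture turned. Then 7 genes were called higher (8.33%, against 29.5% of all tested genes), 0 lower (against 16.6%), and the median change was 0.14. The 7 were Rplp2, Rps4l, Rpl14, Rps21, Rps9, Rps2 and Rps18. Both shares lie below those of all tested genes. The median was also above 0 without WT replicate 2 (0.07, with 59 genes up and 25 down). Of the 84 genes 1 was called higher there, against 3233 of all 13797 tested genes. With array weights the median was 0.08, with 53 up and 31 down, and it was below 0 in the other alternatives. The direction of the group as a whole therefore changed with the libraries kept and with the weights.

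**Figure D5:**
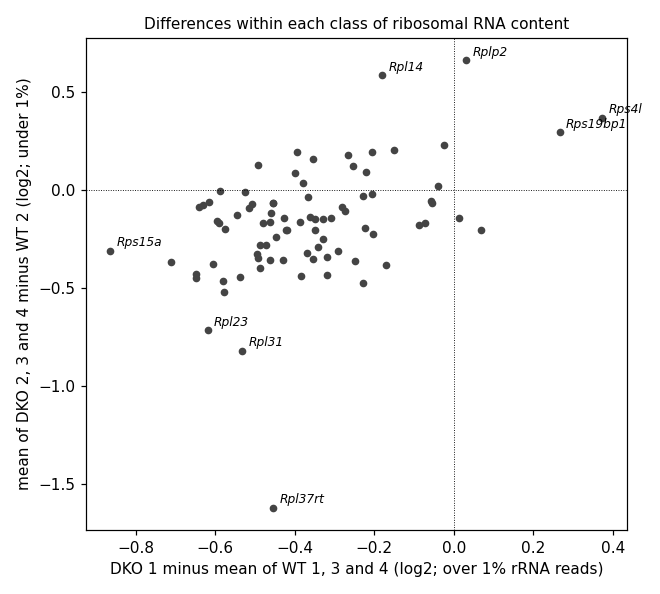
Knockout-minus-WT difference of each ribosomal protein gene (log2) in the libraries with over 1% ribosomal RNA (x axis, 3 WT and 1 knockout) and in the other libraries (y axis, 1 WT and 3 knockouts). Of the 84 genes, 66 lie below 0 on both axes and 3 above 0 on both.

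A scale free of the shared shift was made by centring each library on the median of the 84 genes. On it, Rpl31 (-0.53, adjusted p = 0.0397 in limma) and Rpl23 (-0.52, 0.0433) were called lower. Rplp2 (0.73, 0.0309), Rps4l (0.70, 0.0331) and Rpl14 (0.55, 0.0382) were called higher. These 3 are 3.57% of the 84 genes against 17.9% of all tested genes on that scale, and the 2 lower ones 2.38% against 10.8%. Because the scale was built from the 84 genes, their median residual SD was 0.122 on it, against 0.325 before. That of all tested genes was 0.352, against 0.276 before, so these shares are not like for like. Median centring over all genes gave 1 higher call (1.19%, against 17.7% of all tested genes) and 7 lower calls (8.33%, against 20.5%). The lower ones were Rpl31, Rpl23, Rpl37rt, Rps29, Rps28, Rps3 and Rpl27. Median-ratio size factors also gave 1 higher (against 18% of all tested genes) and 7 lower (against 20.8%), and quantile normalization 1 higher (against 17.3%) and 3 lower (against 19.2%).

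Counts for the genes around the ribosome are to be read against the 22.7% of all tested genes called higher and the 16.1% called lower. Among ribosomal proteins that bear other names, Gnb2l1, the scaffold RACK1, had a change of -0.28 ± 0.18 and Fau of 0.12 ± 0.26, and neither passed the test. A list of 9 genes held elongation factors, which move the ribosome along the message, and genes related to them by name or function. It gave 1 higher call, Eef2k, and 1 lower call, Eef1e1 (11.1% each, below both shares). Eef1e1 fell by 0.59 (SE 0.17, adjusted p = 0.0209 in limma), a call lost in 6 of 25 alternatives. Eef1a1 (-0.07 ± 0.27) and Eef2 (0.20 ± 0.19) did not pass, while Eef2k, the kinase that inhibits Eef2, rose by 0.82 ± 0.25 (adjusted p = 0.0294 in limma), a call lost in 6 of 25 alternatives. Of 35 initiation factors 4 were higher (11.4%) and 3 lower (8.57%), also below both shares, with a median of 0.09. Eif2b3, a subunit of the exchange factor for eIF2, stood at 3.87, 4.01, 4.13 and 3.90 in WT and 4.87, 4.65, 5.02 and 5.18 in the knockouts, a rise of 0.96 ± 0.14 (adjusted p = 0.000899). Eif4a1, the cap-complex helicase, stood at 9.40, 9.58, 9.54 and 9.61 in WT and 8.91, 8.67, 8.68 and 9.03 in the knockouts, and it fell by 0.71 (SE 0.13, adjusted p = 0.00233). For both genes the groups were well apart, and both were called in all 25 alternatives.

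Among 56 ribosome assembly factors 2 were called higher and 2 lower (3.57% each, against 22.7% and 16.1% of all tested genes), with a median of 0.01. Sbds, which releases Eif6 from the large subunit, rose by 0.42 ± 0.10, and the nucleolar chaperone Npm1 fell by 0.46 (SE 0.14), with the call lost in 3 and 6 of 25 alternatives. Among 13 genes of RNA polymerase I, the enzyme that makes ribosomal RNA, 3 were higher (23.1%, near the 22.7% of all tested genes) and 0 lower, with a median of 0.25 against 0.18 for all tested genes. Its largest subunit Polr1a stood at 4.72, 4.65, 5.01 and 4.97 in WT and 5.66, 5.25, 5.55 and 5.49 in the knockouts, a rise of 0.65 ± 0.13 (adjusted p = 0.00460 in limma). The activators Ubtf (0.40 ± 0.11) and Rrn3 (0.41 ± 0.12) were also called. The call was lost in 7 of 25 alternatives for Ubtf, 12 for Rrn3 and 1 for Polr1a.

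Of 19 regulators of ribosomal protein genes and of their translation, 6 were called higher (31.6%, against 22.7% of all tested genes) and 2 lower (10.5%, against 16.1%), and their median was 0.35. Eif4ebp1, a repressor of the cap-binding protein eIF4E that mTOR inactivates, stood at 5.93, 6.05, 6.41 and 5.97 in WT and 7.52, 7.28, 8.13 and 7.68 in the knockouts. All knockout libraries were above all WT libraries, and the rise of 1.56 ± 0.19 passed the test (adjusted p = 0.000312 in limma). Mtor rose by 0.54 ± 0.13, its inhibitor Tsc2 by 0.42 ± 0.10 and Larp1 by 0.35 ± 0.12. Of 25 alternatives, 1 lost the call of Mtor, 2 that of Tsc2 and 11 that of Larp1. Myc, a transcription factor that drives ribosome production, stood at 4.61, 4.46, 4.42 and 4.71 in WT and 3.64, 3.18, 3.90 and 3.68 in the knockouts. It fell by 0.95 (SE 0.17, adjusted p = 0.00254), and its partner Max fell by 0.47 (SE 0.09), a call lost in 1 of 25 alternatives. Over the same libraries the cell cycle list held 0.0784% ± 0.0045 of reads in WT and 0.0235% ± 0.0035 in the knockouts (n = 4 each), and its part in these values was not tested.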

How the data were processed

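The authors deposited voom log2 CPM values of 16505 genes in 8 libraries. The submitters' processing notes name Trimmomatic, TopHat2, featureCounts, limma and build mm9, with versions and settings not given in the sources used here. Per the labels' protocols, a stranded TruSeq polyA kit was read as 75-base single ends. The values came out as whole reads within 0.01 read for 100% of entries, which gave depths and shares.

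The log2 values were fitted with limma 3.58.1 in R 4.3.3 (lmFit, eBayes with trend), group as the only term, for 13797 genes with a mean of at least 0, two-sided, with Benjamini-Hochberg adjustment at 0.05. Intervals cover 95%, and Wilson intervals counting error only. Members, gene lists and tests were chosen with earlier results of these data known. Named were members past the threshold, the stalk, 5S, reference and paralog lists, single core proteins and up to 3 genes of each pathway list by smallest p. Rpl23, Rpl14, Rps21, Rps2, Rps3, Rpl37rt, Rps19bp1, Rpl3l, Eef1a1, Eef2, Mtor, Tsc2, Larp1 and Rps6kb1 were added after their values were seen, as were the genes listed with a count. One listed gene is not reported here.

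Alternatives (25) changed scaling, filter, fit, covariate or libraries. Reads of 14281 genes were simulated for this comparison (dispersion 0.05), with 200 genes changed. Of 100 genes changed 2-fold 66% were recovered, and of 100 changed 4-fold 100%, with 6 unchanged genes called. In the data 38.8% of tested genes were called, a far larger part, so these rates need not hold for them. Plots used matplotlib 3.10.9.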

Additional observations from a re-analysis of the deposited data

Results flagged for a closer look

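Of 172 group values examined (each of the 84 genes, their share of reads and the ratio of large- to small-subunit reads, in each group of 4 libraries), 1 had a library far from the others. Rpl7a, a large-subunit protein, was at 8.01 log2 CPM in knockout replicate 1, and the nearest other knockout library was at 8.64. Chance flags about 1 in 20 such groups. Knockout replicate 1 was also the lowest of the 8 libraries for 70 of the 84 ribosomal protein genes.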

How the results depend on the processing

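Alternatives were set with earlier results known. Centring on the members' median was added after seeing the data. Against 1 higher and 1 lower call, the number called higher was 5 with array weights, 3 when centred on the members' median, 0 after thinning to the smallest library, 0 with ribosomal RNA class as a term and 0 without the epididymis libraries. The number called lower was 7 under median centring, 7 with median-ratio size factors, 3 under quantile normalization, 12 with that term, 0 without the epididymis libraries, and 2 each with the filter at a mean of 2, without ribosomal RNA genes, without a variance trend, with array weights and when centred on the members' median. Leaving out 1 library gave 0 to 7 higher (7 without knockout replicate 1) and 0 to 2 lower. Of all tested genes, 2143 to 4075 were then higher and 1860 to 2297 lower. The members' median change ran from -0.16 to 0.14. The members' median was -0.39 within the class with more ribosomal RNA. Of all 13797 tested genes 3137 were higher and 2216 lower. These counts were 2444 and 2825 under median centring, 2389 and 2647 under quantile normalization and 2481 and 2865 with median-ratio size factors. They were 4428 and 2609 with array weights, 2475 and 1493 when centred on the members' median and 2740 and 2021 after thinning. With ribosomal RNA class as a term they were 2255 and 2131, and without the epididymis libraries 2113 and 1711. Without ribosomal RNA genes they were 2947 and 2560, and without a variance trend 3035 and 2162. With the filter at a mean of 2 they were 2814 and 2014 of 11589 genes. The replicate block gave 2 higher (Rps4l, Rpl14) and 2 lower members (Rpl31, Rpl23), against 3232 and 2136 of all tested genes. The labels tie same-numbered libraries to no shared animal, litter or day, and pairing was not taken as established, since their deviations correlated at 0.36, 0.79, 0.24 and -0.36, and 1 of 4 WT libraries correlated best with its own number. The causes were not tested. The lowest read count was 324 for the core genes and 6 for any of the 84.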

Other observations

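Rpl3l, the muscle-type copy of Rpl3 that lies under the level limit, was at 4.13 and 4.03 log2 CPM in knockout replicates 2 and 4 and at 3.14 in WT replicate 2, and between -3.86 and -2.90 in the other 5 libraries. Its 3 high libraries are those with 1.32% to 2.81% epididymis reads.

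Of 5 pseudogene rows left out by name, Rpl39-ps and Rpl31-ps8 passed the level limit. Rpl39-ps stood at 2.02, 2.52, 1.79 and 2.47 in WT replicates 1 to 4 and 1.35, -0.25, 0.39 and 0.63 in the knockouts, and it fell by 1.67 on the log2 scale (adjusted p = 0.00832 in limma) on 159 WT and 151 knockout reads in all. Rpl31-ps8 fell by 1.35 (adjusted p = 0.0265) on 56 and 88 reads, the same direction as Rpl31. Of 24 alternatives, 1 lost the call of Rpl39-ps and 10 that of Rpl31-ps8. Reads of these copies and of Rpl39 and Rpl31 may have been split between near-identical sequences.

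The genes named as S6 kinases, taken by symbol and not by action on Rps6, had 2 of 9 called higher (22.2%, near the 22.7% of all tested genes) and 3 lower (33.3%, against 16.1%). Rps6kb1, the main S6 kinase of the mTOR pathway, rose by 0.41 ± 0.12 (adjusted p = 0.0272 in limma), a call lost in 8 of 25 alternatives. Rps6ka1 stood at 5.76, 5.65, 5.69 and 5.76 in WT and 4.85, 4.88, 4.48 and 4.22 in the knockouts, and Rps6ka2 at 4.90, 5.09, 5.03 and 5.68 against 3.94, 4.38, 3.74 and 3.95. These 2 genes, of the RSK kinases downstream of ERK, fell by 1.11 (adjusted p = 0.000676) and 1.17 (0.00203), and the groups did not overlap for either. The other lower call was Rps6kc1, which fell by 0.59 (adjusted p = 0.00241 in limma).

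Among 9 host genes of small nucleolar RNAs, whose messages also start with pyrimidine tracts, 2 were called higher (22.2%, near the 22.7% of all tested genes) and 0 lower, with a median of 0.24. Snhg7 rose by 1.18 ± 0.35 and Snhg5 by 0.62 ± 0.21, and their calls were lost in 7 and 11 of 25 alternatives.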
